A study of Mus musculus with 4 samples.

Results

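Genes of the cornified envelope were examined in extracts of the mouse middle ear after exposure to diesel exhaust particles (DEPs). The cornified envelope is the protein shell that replaces the plasma membrane of keratinocytes in the outermost layer of the epidermis, the skin that also lines the ear canal and covers the outer side of the eardrum. Its genes were taken by symbol, as all small proline-rich protein (Sprr) and late cornified envelope (Lce) genes together with Lor, Flg, Flg2, Ivl, Hrnr, Rptn, Tchh, Crnn, Tgm1 and Tgm3, without use of any measured value. Of 48 such symbols in the RefSeq gene table, 43 genes had at least 1 probe, 50 probes in all, among the 32360 genes or unnamed transcripts on the array. Flg, Lce6a, Sprr2a1, Sprr2a3 and Sprr2c-ps were not analysed here. Of the 43 genes, 41 lie on chromosome 3, in the gene cluster named the epidermal differentiation complex, while Tgm3 lies on chromosome 2 and Tgm1 on chromosome 14.

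RNA was hybridised to 4 arrays of 2 colours. On each, the red dye Cy5 marked ear RNA whose source is given as DEP, and the green dye Cy3 marked ear RNA whose source is given as control, without treatment. By the study's methods the animals were BALB/c males, 9 in all and aged 6 to 10 weeks, and exposure was by breathing in DEPs, 1 h daily over 5 days. On day 14 tissue around the temporal bone was collected, with the middle ear in it. The number of mice behind an extract and the handling of the control mice are not given in the sources used here, so p-values measure the spread between arrays, which may be technical in part. No array had its dyes swapped, so a preference of a probe for 1 dye and an effect of exposure cannot be told apart. The labels name a source for each channel but list both treatments under the red channel, so the source names were followed. With this direction, the signal of Chrm1 and Epo was lower in the channel labelled DEP, the opposite of the direction that the study gives for both. The mean log2 ratio of Chrm1 was -1.21, below 0 on 3 of 4 arrays, and that of Epo was -1.36, below 0 on 3 of 3 arrays with a ratio but with neither channel above background on any. The direction of the transcripts that the study gives as lowered was not read here, and its qRT-PCR was not analysed.

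In the epidermis, keratinocytes move outward from a basal layer and change their protein content as they do so. In the upper living layers, involucrin (Ivl) is laid under the membrane first, and loricrin (Lor), the small proline-rich proteins and the late cornified envelope proteins are added later. Transglutaminases, among them Tgm1 and Tgm3, join these proteins by covalent bonds into an insoluble sheet. The fused S100 proteins (Flg2, Hrnr, Rptn, Tchh and Crnn) are large proteins with calcium-binding ends that are made in the same layers, in the hair follicle or in other stratified epithelia. All of these are textbook roles and were not measured here.

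Promoter sequences show what the members share and where their families differ. RefSeq windows of assembly GRCm38.p6, from 250 bases before to 50 bases after each transcription start, were found for 40 of the 43 members, in 41 windows. Both strands were searched for the TATA box, TATAAA, for the site of the AP-1 factors, TGANTCA, and for a site of the Krüppel-like factors, CCACACCC. 4 windows are printed, because their genes carry the contrast described further on, with matches in capitals: Lor, whose ratio was near 0 on all arrays but the first, Ivl and Sprr1a, whose ratios differed more widely between arrays, and Lce1c for the largest family. They lie at chr3:92083093-92083392 for Lor, chr3:92573686-92573985 for Ivl and chr3:92485832-92486131 for Sprr1a, all on the minus strand, and at chr3:92678997-92679296 on the plus strand for Lce1c.
Lor: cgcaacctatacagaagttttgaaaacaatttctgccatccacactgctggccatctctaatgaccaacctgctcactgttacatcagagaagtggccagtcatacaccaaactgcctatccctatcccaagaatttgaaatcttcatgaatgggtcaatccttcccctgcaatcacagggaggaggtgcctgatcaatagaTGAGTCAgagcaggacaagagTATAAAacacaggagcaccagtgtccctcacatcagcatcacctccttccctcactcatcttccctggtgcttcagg
Ivl: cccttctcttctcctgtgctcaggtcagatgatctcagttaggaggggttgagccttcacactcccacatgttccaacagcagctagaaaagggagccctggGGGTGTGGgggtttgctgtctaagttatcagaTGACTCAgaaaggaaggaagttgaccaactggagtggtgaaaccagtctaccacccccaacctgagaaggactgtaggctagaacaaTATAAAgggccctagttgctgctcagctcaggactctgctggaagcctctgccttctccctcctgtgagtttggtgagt
Sprr1a: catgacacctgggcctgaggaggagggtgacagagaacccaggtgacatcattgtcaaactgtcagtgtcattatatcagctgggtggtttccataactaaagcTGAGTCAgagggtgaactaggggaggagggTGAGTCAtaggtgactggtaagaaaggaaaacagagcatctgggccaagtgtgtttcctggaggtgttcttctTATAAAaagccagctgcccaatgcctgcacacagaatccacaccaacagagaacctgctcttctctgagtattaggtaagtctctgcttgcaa
Lce1c: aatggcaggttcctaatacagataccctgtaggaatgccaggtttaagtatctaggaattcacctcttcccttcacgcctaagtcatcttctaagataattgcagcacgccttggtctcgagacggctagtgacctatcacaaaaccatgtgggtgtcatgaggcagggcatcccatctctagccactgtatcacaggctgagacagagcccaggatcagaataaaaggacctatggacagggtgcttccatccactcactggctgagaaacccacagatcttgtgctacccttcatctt

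The TATA box letters stood in 19 of the 41 windows (46.34%), against 13.62% of all 32851 promoter windows of the same length. They were found in 10 of 12 Sprr windows, in those of both Lor and Ivl, and in 2 of 13 Lce1 windows. In Lor the match begins at position -27 and in Ivl at position -29, counted from the start site. The AP-1 letters stood in 14 of the 41 windows (34.15%), against 7.808% of all windows. By family, 9 of 12 Sprr windows held them, as did those of Lor, Ivl, Flg2, Rptn and Crnn, while 0 of 13 Lce1 and 0 of 6 Lce3 windows did. The Krüppel-like letters were found in the window of Ivl alone (2.439% of the members' windows, 3.562% of all windows). Among the 24 members with a window that were measured in every extract, 4 held the AP-1 letters (Lor, Ivl, Sprr1a and Flg2). The window of Sprr4, whose ratios also differed widely between arrays, held none of the letters searched for. A match is a description of the letters and not of a bound factor, and a link between matches and ratios was not tested. Related genes share promoter sequence, so the windows of a family are not independent: the median identity between windows was 62.2% over the 78 pairs of Lce1 genes, 56.4% over the 15 pairs of Lce3 genes and 47.6% over the 66 pairs of Sprr genes, and it reached 88.7% between Sprr2d and Sprr2e. The windows of Lor and Ivl were 43.6% identical.

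The tissue held cornified envelope transcripts in every extract. A signal well above background in every extract was found for 25 members, namely all 14 Lce1 genes, Lce3d, Lor, Ivl, Flg2, Hrnr, Tchh, Sprr1a, Sprr2a2, Sprr4, Tgm1 and Tgm3. A further 9 had a ratio on at least 3 arrays but were not measured in every extract (Crnn, Lce3b, Lce3c, Lce3f, Rptn, Sprr1b, Sprr2d, Sprr2f and Sprr2g). The remaining 9 could not be tested (Lce3a, Lce3e, Sprr3, Sprr2b, Sprr2e, Sprr2h, Sprr2i, Sprr2j-ps and Sprr2k). The DEP channel of array 1 was above background for 34 members and its control channel for 28. No member met the condition for a bound, which is a signal well above background on all arrays in 1 channel and on none in the other (0 members). Marker lists were read beside the tissue label. All 13 tested markers of airway-type epithelium, which lines the middle ear, were measured in every extract. So were 9 of 10 markers of bone and cartilage, 9 of 9 of skeletal muscle and 12 of 12 of basal keratinocytes. The same held for 7 of 8 markers each of neurons, melanocytes and adipocytes, and for 18340 of all 25694 genes tested. These counts therefore do not set the middle ear apart from other tissue.

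Ratios of the members are log2 values of DEP over control by the source names. Averaged over the 4 arrays, they were above 0 for 31 of the 34 tested members and below 0 for 3 (Crnn, Sprr2f and Tgm3), against 54.2% of all genes above 0, with a median of 0.79, against a median of 0.03 over all 25694 genes tested. Of the 34 members, 9 were at least 2-fold higher by their mean, against 2.37% of all genes, and 0 were at least 2-fold lower, against 4.37%. These were Rptn (2.82), Sprr4 (2.24), Lce3b (1.56), Sprr1a (1.36), Sprr1b (1.32), Lce1k (1.21), Lce3c (1.16), Sprr2g (1.13) and Tgm1 (1.02), of which Sprr4, Sprr1a, Lce1k and Tgm1 were measured in every extract. In limma's test against 0, 0 members passed an adjusted p of 0.05, as did 0.0% of all genes. By the brightest probe of each, the members' adjusted p ran from 0.172 to 0.939. Without adjustment, Lce3b and Lce3d passed the same threshold with a higher ratio (2 members), where 10.0% of all genes did, and 0 members with a lower ratio, where 8.66% of all genes did. No member's mean ratio passed the adjusted test, and the arrays are therefore described one at a time.

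The spread between arrays was wide for these genes. The median SD of a member over the arrays was 1.29 on the log2 scale, against 0.344 over all genes, and among genes measured in every extract it was 1.33 for the 25 members against 0.282 for all 18340. Of the 34 tested members, 17 had an SD above the 95th percentile of all genes, which was 1.29. Array 1 had the highest ratio of the 4 for 33 of the 34 members, and array 4 the lowest for 23. Among the members measured in every extract these counts were 24 and 19 of 25, against 33.2% and 27.6% of the 18340 genes.

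On array 1, 30 of 34 members were at least 2-fold higher in the DEP channel, against 8.47% of all genes, and 34 of 34 had a ratio above 0, against 48.4% of all genes. For 5 of the 30 (Lce3b, Rptn, Sprr1b, Sprr2d and Sprr2g) the control channel was not above background. On array 2, 2 of 33 members passed the same limit, Rptn (1.08) and Sprr4 (1.05), against 3.35% of all genes. On array 3 there were 6 such members of 34, against 5.2% of all genes, and 2 that were at least 2-fold lower, against 5.38%. Of the 6, Lce3b and Rptn had a control channel at background, and the 2 lower ones, Sprr2d and Sprr2f, had both channels there, so that 0 lower members were measured. On array 4, 1 of 32 members was at least 2-fold higher (Lce3b), against 4.29% of all genes, and 4 were at least 2-fold lower (Ivl, Rptn, Hrnr and Sprr1b), against 5.56%. Lce3b had 1 channel at background, and Rptn and Sprr1b had both there, so that of the 4 lower members Ivl and Hrnr alone were measured. The median ratio of the members was 2.79 on array 1, 0.37 on array 2, 0.07 on array 3 and -0.12 on array 4, while that of all genes was -0.02, 0.08, 0.03 and 0.04. Without array 1, the median of the members' mean ratios was 0.087 in place of 0.79, while 3 of 34 members were at least 2-fold higher, against 2.25% of all genes, and 1 was at least 2-fold lower, against 3.67%. In these extracts of whole tissue, more cells of a type and more RNA per cell cannot be told apart.

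**Figure D1:**
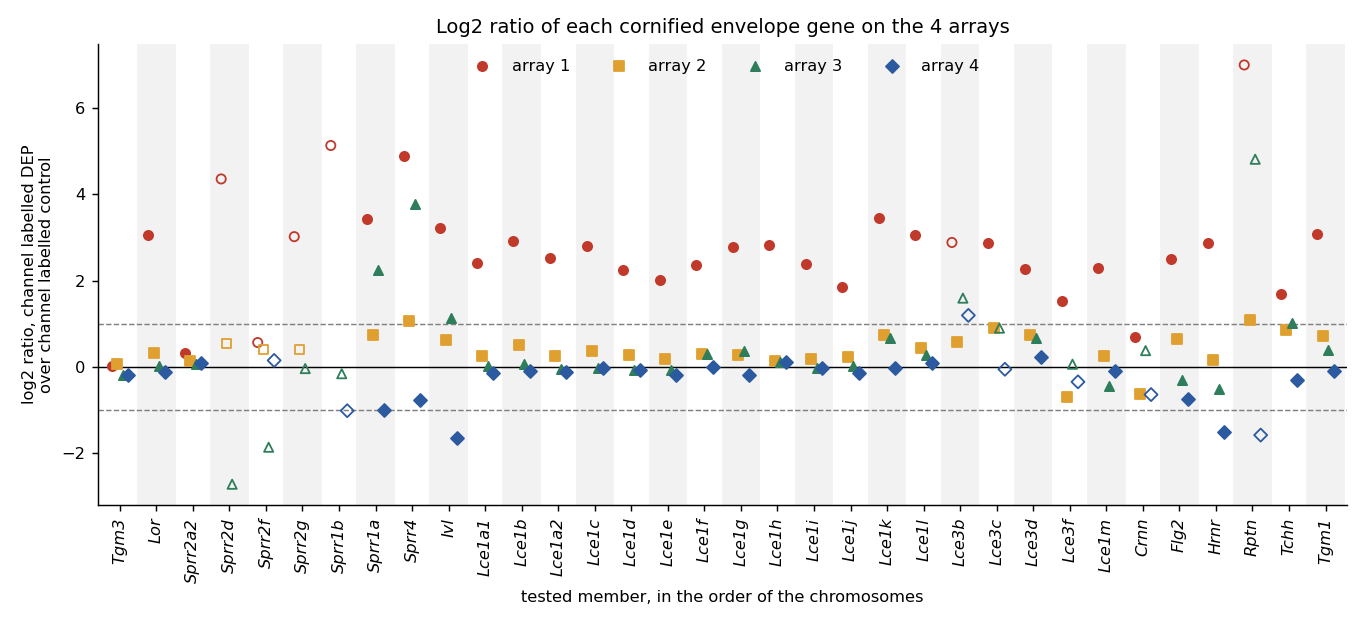
Log2 ratio of DEP over control by the source names (vertical axis) for each of the 34 tested members, which stand in the order of chromosomes 2, 3 and 14 (horizontal axis). Each symbol is 1 array, open where a channel was not well above background, and the dashed lines mark 2-fold. Array 1 lies above the other arrays for 33 of 34 members, and the 14 Lce1 genes lie between -0.43 and 0.73 on arrays 2 to 4, where Ivl reaches from -1.64 to 1.12 and Sprr4 from -0.76 to 3.77.

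Loricrin, the most abundant protein of the mature envelope, gave ratios of 3.04, 0.31, 0.02 and -0.12 on arrays 1 to 4 (mean 0.81, SE 0.59, n = 4 arrays, limma adjusted p = 0.489). Its normalized signal in the extracts labelled DEP was 99470, 32470, 26760 and 20380, and in those labelled control 12070, 26160, 26440 and 22170. Thus the DEP extract of array 1 was the highest of all 8 and the control extract of the same array the lowest, and on the other arrays both extracts were close. The 14 Lce1 genes, which encode envelope proteins added late, followed loricrin. Their ratios lay between 1.86 and 3.45 on array 1 (median 2.46), between 0.14 and 0.73 on array 2 (median 0.26), between -0.43 and 0.67 on array 3 (median 0.01) and between -0.20 and 0.11 on array 4 (median -0.08). Lce1b gave 2.92, 0.50, 0.08 and -0.09, and its signal was 6970, 1825, 1375 and 983.7 in the DEP extracts and 923.1, 1292, 1302 and 1049 in the control extracts. Lce1k had the highest mean of the family (1.21, SE 0.60, limma adjusted p = 0.346), with 3.45, 0.73, 0.67 and -0.03. Lce1e had the lowest (0.49, SE 0.41, limma adjusted p = 0.554), with 2.02, 0.19, -0.08 and -0.20. Among the 14 genes the control extracts differed by 1.12-fold to 1.68-fold from lowest to highest, and the DEP extracts by 4.20-fold to 11.4-fold. The probes of a family of near-identical genes may bind each other's transcripts, so the 14 values are not independent.

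The Lce3 genes, late cornified envelope genes known to be raised in damaged epidermis, were dim. Lce3d was the only one measured in every extract, at 2.28, 0.74, 0.66 and 0.23 (mean 0.98, SE 0.36, limma adjusted p = 0.257), above 0 on 4 of 4 arrays. Its DEP signal was 375.8, 163.2, 120.1 and 106.6, and its control signal 77.60, 97.70, 75.87 and 90.87. Lce3b was also above 0 on 4 of 4 arrays, at 2.88, 0.57, 1.59 and 1.19, but its control channel was above background on 1 array. Its mean of 1.56 had an SE of 0.39 and, in limma, the lowest adjusted p among the members' brightest probes, 0.172. With another background subtraction, normexp, the mean was 0.448 with loess and 0.322 with median centring. The size of the Lce3b ratio is therefore not known. Lce3c gave 2.88, 0.90, 0.90 and -0.05 and Lce3f 1.54, -0.69, 0.06 and -0.35. Lce3a and Lce3e were below background in both channels on all arrays.

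Involucrin, an early scaffold of the envelope, gave 3.22, 0.62, 1.12 and -1.64 (mean 0.83, SE 0.78, limma adjusted p = 0.588). Its signal was 1486, 531.3, 439.2 and 123.1 in the DEP extracts and 159.5, 345.4, 201.8 and 384.5 in the control extracts. The extracts labelled DEP and control overlapped, since the DEP extract of array 4 was the lowest of the 8. A second probe of the gene gave 3.12, 0.62, 1.07 and -1.57. On array 1 involucrin and loricrin had like ratios, and on arrays 3 and 4 they did not: involucrin was more than 2-fold higher on array 3 and more than 2-fold lower on array 4, where loricrin was at 0.02 and -0.12.

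Among the Sprr genes, whose short products act as cross-bridges between envelope proteins, 3 of 14 were measured in every extract. Sprr1a gave 3.41, 0.75, 2.25 and -0.99 (mean 1.36, SE 0.75, limma adjusted p = 0.380). Its DEP signal was 35600, 16410, 15960 and 2223, and its control signal 3343, 9767, 3361 and 4418. The DEP extracts were thus higher on arrays 1 to 3 and lower on array 4. Sprr4 gave 4.88, 1.05, 3.77 and -0.76 (mean 2.24, SE 1.00, limma adjusted p = 0.309). Its signal was 16720, 6556, 7014 and 485.4 in the DEP extracts and 569.3, 3158, 512.8 and 821.3 in the control extracts. The control extract of array 2 was the highest control for Sprr1a and Sprr4 alike, and for both the DEP extract of array 4 was the lowest of all 8. Between the lowest and the highest DEP extract, Sprr4 differed by 34.5-fold and Sprr1a by 16.01-fold, against 6.16-fold and 2.92-fold between control extracts.

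Sprr2a2 did not share this pattern by its brightest probe, which gave 0.33, 0.14, 0.07 and 0.10 at signals between 44460 and 60220 in the 8 extracts. A second, dimmer probe of the gene gave 2.51, 0.50, -3.05 and -1.25, and another was not above background on any array, so the probes of Sprr2a2 disagree. The Sprr2 genes are near-identical copies and the signal of a probe may come from several of them. Sprr1b, Sprr2d and Sprr2g were above background in the DEP channel of array 1 alone, with signals of 281.2, 98.24 and 40.79. The control channel there was not above background, so the size of their ratios is not known beyond being above 0. Sprr2f was above background in neither channel. Sprr2h was above background in the DEP channel of array 1 too, where it had its only ratio. Sprr3, which is made mainly in the esophagus and other moist stratified epithelia, was below background in all extracts, as were Sprr2b, Sprr2e, Sprr2i, Sprr2j-ps and Sprr2k.

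**Figure D2:**
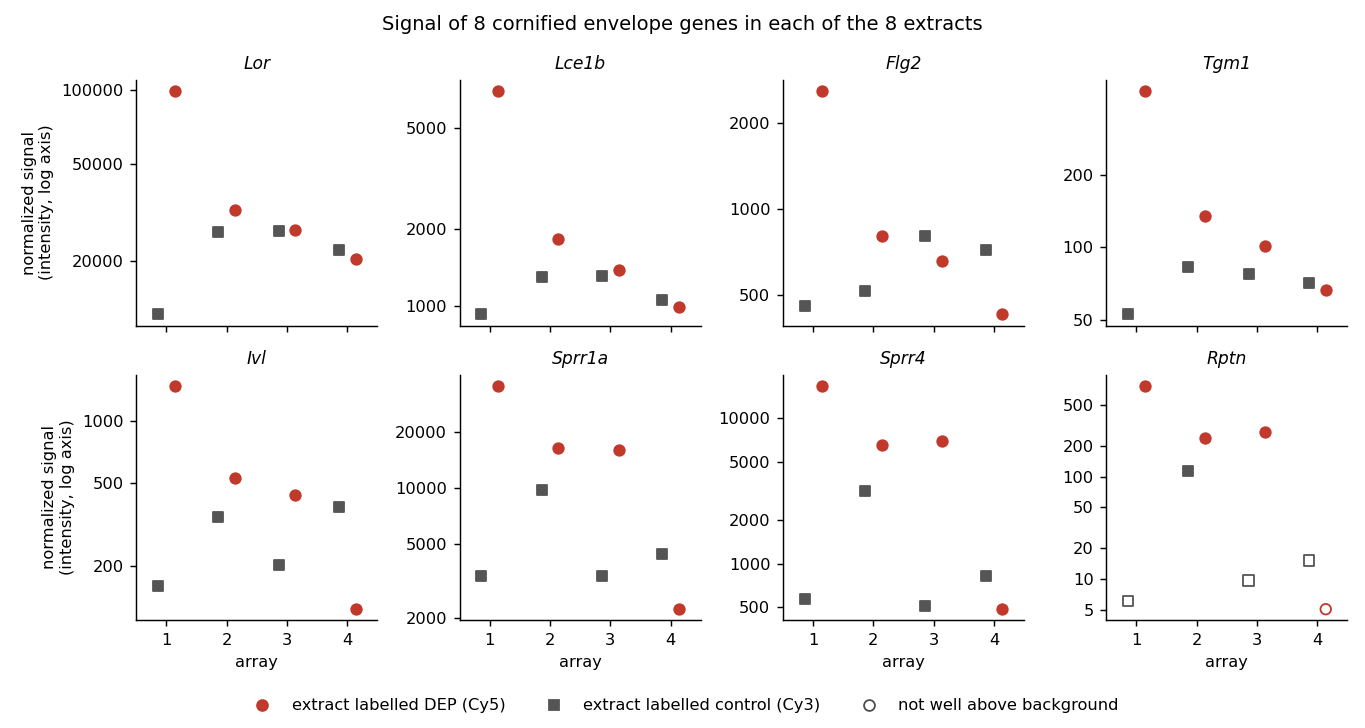
Normalized signal (intensity, log axis with its own range in each panel) of 8 members in the 8 extracts, by array; circles are extracts labelled DEP, squares extracts labelled control, and open symbols were not well above background. For Lor and Lce1b both extracts of arrays 2, 3 and 4 lie close together, whereas for Ivl, Sprr1a and Sprr4 the DEP extract is clearly above the control on array 3 and below it on array 4.

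The fused S100 genes differed among themselves. Repetin (Rptn), an envelope protein of the upper epidermis and hair, gave 6.99, 1.08, 4.81 and -1.58 (mean 2.82, SE 1.48, limma adjusted p = 0.362). Its DEP signal was 774.7, 241.3, 270.5 and 5.049 and its control signal 6.104, 114.3, 9.668 and 15.07. It was above background in 3 DEP extracts and in 1 control extract, that of array 2, so its ratios on arrays 1 and 3 rest on a control channel at background and that on array 4 on both channels at background. Their size is therefore not known, and the mean and SE carry the same limit. Hornerin (Hrnr), a filaggrin-like protein, gave 2.87, 0.16, -0.52 and -1.52 (mean 0.25, SE 0.74, limma adjusted p = 0.870), and filaggrin-2 (Flg2) gave 2.50, 0.64, -0.30 and -0.75 (mean 0.52, SE 0.57, limma adjusted p = 0.635). Both were below 0 on arrays 3 and 4, unlike Ivl, Sprr1a and Sprr4, which were above 0 on array 3. The Flg2 signal was 2585, 806.4, 658.2 and 428.7 in the DEP extracts and 457.3, 519.1, 808.0 and 720.3 in the control extracts. Trichohyalin (Tchh), a protein of the inner root sheath of the hair, gave 1.68, 0.86, 1.01 and -0.31 (mean 0.81, SE 0.33, limma adjusted p = 0.286). Cornulin (Crnn), known from the esophagus, was above background in 2 extracts of each label and gave 0.70, -0.62, 0.38 and -0.64.

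Tgm1, the membrane-bound transglutaminase of keratinocytes, gave 3.08, 0.71, 0.39 and -0.10 (mean 1.02, SE 0.56, limma adjusted p = 0.379). Its signal was 446.2, 134.8, 101.4 and 66.22 in the DEP extracts and 52.67, 82.68, 77.64 and 71.02 in the control extracts, so that on arrays 3 and 4 it lay closer to loricrin than to involucrin. Tgm3, a soluble transglutaminase of epidermis and hair, gave 0.02, 0.07, -0.19 and -0.19 by its brightest probe (mean -0.07, SE 0.11, limma adjusted p = 0.740). Its other probe gave 0.83, 0.55, 0.84 and 0.90 (mean 0.78, SE 0.11, limma adjusted p = 0.107), so the probes of Tgm3 disagree as well, and neither has the high value on array 1 that Tgm1 has.

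Over the 25 members measured in every extract, the DEP extract of array 1 was the highest of the 8 for 23, the exceptions being Tgm3 and Sprr2a2. The DEP extract of array 4 was the lowest for 13 and the control extract of array 1 for 7. The DEP extracts lay further apart than the control extracts for 24 of the 25, with a median of 6.75-fold between the highest and the lowest DEP extract and of 1.52-fold between control extracts. Which label has the wider spread here, as for the Lce1 and Sprr genes above, rests on the source names: the wide spread is that of the Cy5 channel, and if the channels were labelled the other way round it would be that of the control extracts. These signals were set on a common scale between arrays with each array's ratio kept, and they are open to dye bias, so they are given as a description with no test. The same counts and folds were not taken over all genes, so the wider spread cannot be called particular to the members.

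Ratios of the 25 members on arrays 2 and 3 had a Pearson r of 0.76 across genes (Spearman rho 0.68), against 0.36 (rho 0.39) over the 18340 genes measured in every extract. For arrays 1 and 3 the members had 0.57 (rho 0.48), against 0.42 (rho 0.29), and for arrays 1 and 2 they had 0.58 (rho 0.51), against 0.63 (rho 0.49). Array 4 had negative values with each of the others, -0.34 with array 1, -0.27 with array 2 and -0.33 with array 3 (rho -0.19, -0.19 and -0.01). Over all probes with a ratio on both arrays, array 4 had an r of -0.22 with array 1, 0.14 with array 2 and 0.29 with array 3. Over the 18340 genes these were -0.47, -0.05 and 0.13 (rho -0.29, 0.097 and 0.36). For arrays 3 and 4 the members' value was thus below 0 by Pearson's r and near 0 by rank. Genes are not independent replicates, and the members share extracts, labelling and scan, so no p is given. Among the 25 members, 4 were at least 2-fold higher on array 3 (Sprr4, Sprr1a, Ivl and Tchh), against 1.96% of the 18340 genes, and 2 were at least 2-fold lower on array 4 (Ivl and Hrnr), against 2.94%.

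**Figure D3:**
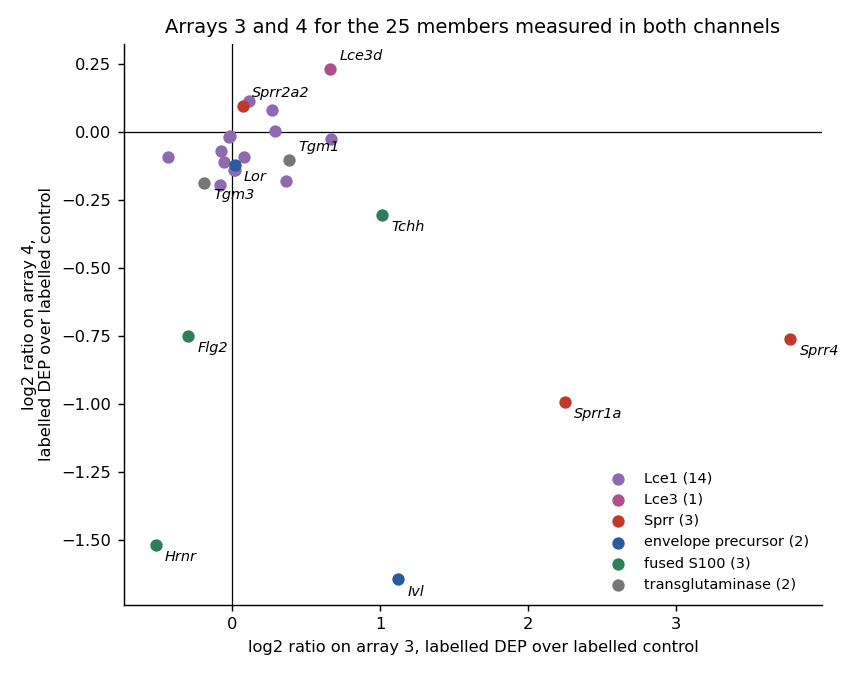
Log2 ratio on array 3 (horizontal axis) against that on array 4 (vertical axis), labelled DEP over labelled control, for the 25 members measured in every extract, coloured by family. The Lce1 genes lie between -0.43 and 0.67 on array 3 and between -0.20 and 0.11 on array 4, Lor lies at 0.02 and -0.12, Sprr4, Sprr1a and Ivl lie to the right and below 0, and Hrnr and Flg2 are the lowest of the points left of 0 (-1.52 and -0.75 on array 4).

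Other genes of cornification were read from lists drawn up by function. The 19 genes of the cornifying layers beside the envelope had median ratios of 2.95, 0.32, 0.54 and -0.90 on arrays 1 to 4, with 18 at least 2-fold higher on array 1 and 8 at least 2-fold lower on array 4, against 8.47% and 5.56% of all genes. Corneodesmosin (Cdsn), an adhesive protein of the outer layers, gave 4.14, 0.82, 2.09 and -1.26, and keratin 2 (Krt2) 0.45, -0.04, -0.44 and -0.26. The 15 scaffold and cross-linking partners had medians of 1.095, 0.43, 0.43 and -0.70, and the 15 genes of barrier lipids 2.70, 0.49, 0.83 and -1.32. The 11 proteases and inhibitors of desquamation had 3.04, 0.56, 0.99 and -0.96, with the kallikrein Klk10 at 4.23, 0.74, 3.59 and -0.79. The 16 regulators of terminal differentiation had 2.48, 0.54, 0.23 and -0.91. These lists were thus high on array 1 and below 0 on array 4, as involucrin was, while the Lce1 genes and Lor lay near 0 on array 4, a difference that was not tested. By their mean ratio 18, 14, 14, 11 and 15 genes of these lists were above 0, against 54.2% of all genes tested, and 0 genes of any passed an adjusted p of 0.05 in limma. The 19 tested neighbours within the epidermal differentiation complex that are no members, S100 genes among them, had 0.42, 0.17, 0.10 and -0.14. Crct1, Kprp and Lelp1 stand both in that list and in that of the cornifying layers.

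Markers of several other skin cells were also high on array 1 and below 0 on array 4. The 12 markers of basal keratinocytes had medians of 2.33, 0.46, 0.15 and -0.63, the 9 tested markers of stratified mucosa and wound keratinocytes 2.55, 0.43, 0.17 and -0.78, and the 11 markers of the sebaceous gland, a gland attached to the hair follicle, 3.25, 0.51, 1.48 and -1.97. Awat2, a wax synthase of that gland, gave 5.79, 1.68, 3.27 and -4.29. The summed signal of the basal keratinocyte list ran from 37550 to 166000 in the DEP extracts and from 38020 to 73190 in the control extracts, with 0 of its markers below background, and that of the sebaceous list from 30590 to 247400 and from 35710 to 123900, with 1 marker below background everywhere. The 14 tested markers of hair follicle and hair shaft had 0.40, 0.18, 0.31 and 0.22, and their summed signal was between 1585 and 1988 in all extracts, with 4 markers below background everywhere and 6 of the 14 measured in every extract. Markers of airway-type epithelium had -0.24, 0.29, -0.36 and -0.33, and the 8 markers of neurons -2.47, -1.84, -0.49 and 0.33. On array 1 the 13 airway markers were split. At least 2-fold higher were 3 (Cdh1, Epcam and Scgb1a1), against 8.47% of all genes, and 3 were lower (Bpifb1, Ltf and Muc5b), against 9.6%. By their mean ratio, 5 of the 8 neuron markers were at least 2-fold lower, against 4.37% of all genes. In limma 4 of them were lower at an unadjusted p under 0.05, against 8.66%, and 0 passed after adjustment. The part of a different amount of skin in the extracts in the members' ratios was not tested, nor was that of a different amount of neural tissue. Trp63, which marks basal keratinocytes but other epithelia too, gave -0.03, 0.15, -0.04 and 0.16; it is listed among the regulators too.

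**Figure D4:**
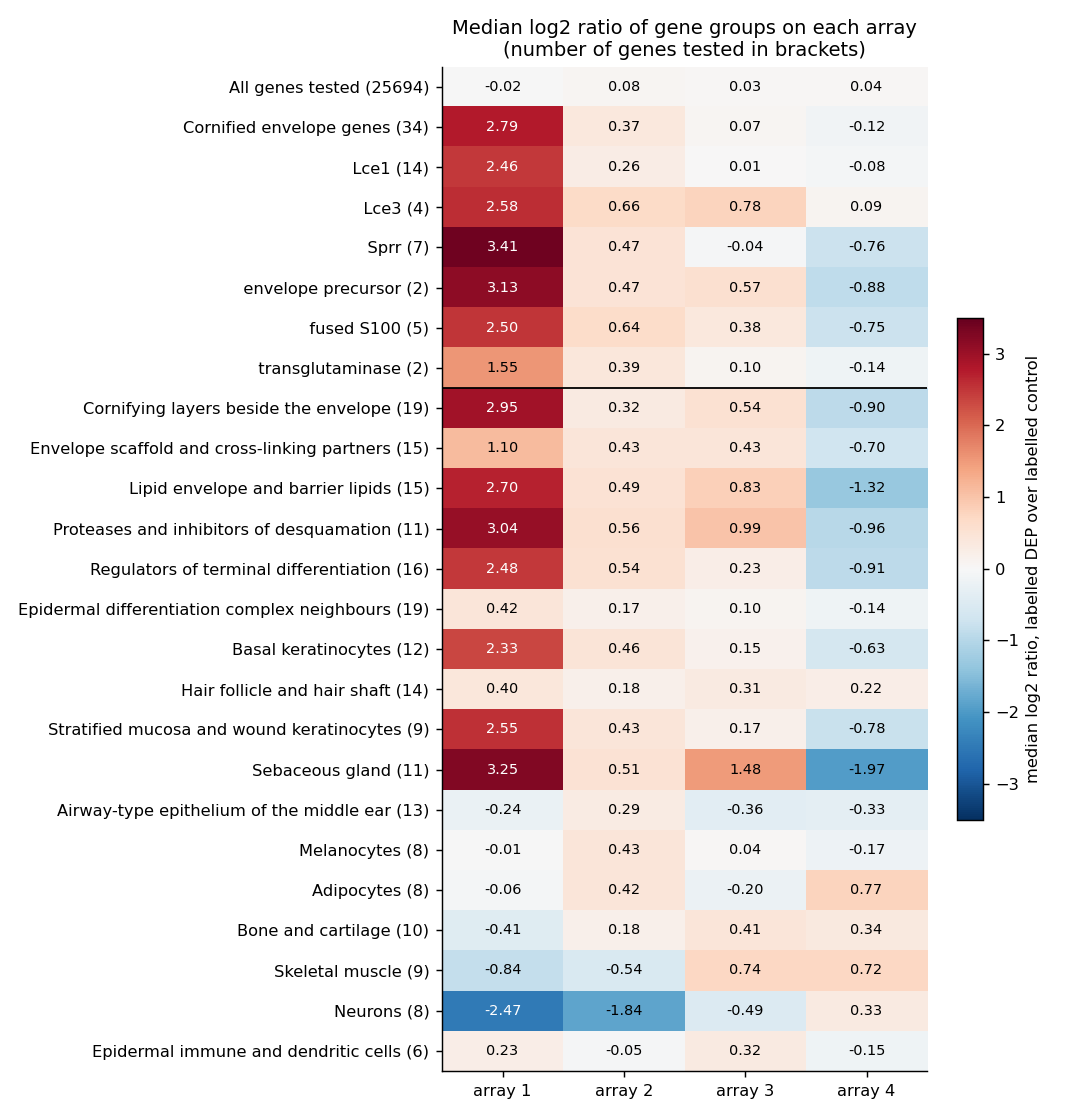
Median log2 ratio, labelled DEP over labelled control, of all genes, of the members and their families (upper rows) and of 17 lists of other genes (lower rows) on each of the 4 arrays, with the value in each cell and the number of genes tested in brackets. The rows of cornification, keratinocytes and the sebaceous gland are highest on array 1 and below 0 on array 4, the exception being Lce3 (0.09 on array 4), and the Lce1 row (2.46, 0.26, 0.01 and -0.08) differs from the row of the cornifying layers (2.95, 0.32, 0.54 and -0.90) on arrays 3 and 4.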

How the data were processed

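Extracts of dissected mouse ears were compared on 4 two-colour 4x44K arrays, all on 1 slide read in 1 scan, which leaves no batch to test. Spots were read by the authors in Feature Extraction 10.10.1.1, per the labels. In the deposited processed intensity, background has been subtracted and the dyes of an array normalized, and the deposited ratio is the log10 of Cy5 over Cy3. The deposited series table of log10 ratios holds the same values rounded. It was used as an alternative.

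The log10 ratios were converted to log2. Control spots, flagged spots (164 to 274 per array) and spots without a ratio (6179 to 8558 of 43020) were left out; 0 gene spots were saturated. Probes well above background made up 65.4% to 68.9% in Cy5 and 59.2% to 68.0% in Cy3. Signals of single channels were set on a common scale between arrays by limma's Aquantile normalization of the mean log signal, which keeps each ratio. Spots of a probe were averaged, and the brightest probe by mean signal stood for a gene. Probes were named through their RefSeq accession. Probes with ratios on 3 or 4 arrays were fitted: an intercept for all 31577 of them, with lmFit and eBayes in limma 3.58.1 under R 4.3.3, with a two-sided test and p-values adjusted by Benjamini-Hochberg across the whole table. The fit was tested on simulated ratios. The limit for a change was 2-fold, as in the study. Tables were written in pandas 2.3.3 with numpy 2.4.6, and plots in matplotlib 3.10.9, under Python 3.11.15.

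The members, the 17 lists, the tests and the alternatives were chosen with earlier results of these data known. Every member is accounted for. Of each list, the genes with the highest and lowest mean ratio among those measured in every extract could be named.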

Additional observations from a re-analysis of the deposited data

Results flagged for a closer look

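In 11 of 32 values with 4 arrays, the median of the members among them, 1 array lay apart from the other 3 by Dixon's criterion, which chance alone meets in about 1 of 20 groups. The values share their arrays and are not independent. On array 1 the log2 ratio stood apart for Lor (3.04), Lce1a1 (2.40), Lce1a2 (2.52), Lce1c (2.80), Lce1d (2.24), Lce1f (2.36), Lce1h (2.82), Lce1i (2.37) and Lce1l (3.05). The median member ratio on array 1, 2.79, stood apart as well. For Sprr2f, which was above background in no extract, array 3 stood apart with -1.86. Ivl, Sprr1a, Sprr4 and Rptn were not set apart in this way, as their ratios were spread over the arrays.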

How the results depend on the processing

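The count of 9 members past 2-fold became 3 with normexp and loess (where 1.75% of all genes were past it in either direction), 4 when probes had to be above background in both channels (3.15%), 4 when only members measured in full were counted (chosen after seeing the data), and 0 when 2-fold was required on every array. Leaving out 1 array gave 4 to 19 members past 2-fold in either direction. Without array 1 there were 4 of 34 (3 higher and 1 lower), against 5.92% of all genes, without array 3 there were 16 of 36, against 7.41%, and without array 4 there were 19 of 36 (18 higher and 1 lower), against 10.2%; with all arrays 6.75% of all genes were past it. The 2 members with an unadjusted p under 0.05, where 18.7% of all genes had one, became 0 with normexp and loess (16.1%), 1 with both channels above background (15.5%), 1 with ordinary least squares (15.5%), 3 with normexp and median centring (37.1%) and 3 with the mean of a gene's probes (18.3%), and 1 to 8 when an array was left out, 8 without array 4, where 18.8% of all genes had one. The 0 members past the adjusted p became 1 with normexp and median centring (Sprr2a2, adjusted p = 0.0319 in limma), a setting in which 11.6% of all genes passed and the median of all genes was 0.11; every other setting gave 0. The median member ratio of 0.79 lay between 0.579 and 0.803 under the settings that keep all arrays and between 0.087 (without array 1) and 1.00 when an array was left out.

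The sign turned with normexp and median centring for Tgm3 (0.166), Sprr2g (-0.029) and Lce3f (-0.020), and with the mean of a gene's probes for Tgm3 (0.354) and Sprr2a2 (-0.079). When 1 array was left out, it turned for some members, whose range over the 4 settings is given: without array 1 for Sprr2d (-1.08 to 2.45), Sprr1b (-0.585 to 2.48), Lce1e (-0.028 to 0.712), Lce3f (-0.323 to 0.418), Lce1m (-0.090 to 0.820), Flg2 (-0.136 to 0.946) and Hrnr (-0.624 to 0.838), without array 2 or 4 for Crnn (-0.295 to 0.151, 0.145 without array 2), and without array 3 for Sprr2f (-0.438 to 0.370). The cause was not tested. The test of the ratios against 0 is already paired by array, because each ratio sets both extracts of an array against each other. There is 1 group of ratios, so no further pairing was used. With 4 arrays, no dye swap and 9 tested members dim in some extract, small differences cannot be shown.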

Other observations

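Other cell types of the ear were read from the remaining lists. Melanocyte markers had median log2 ratios of -0.01, 0.43, 0.04 and -0.17 on arrays 1 to 4, and adipocyte markers -0.06, 0.42, -0.20 and 0.77. Markers of bone and cartilage had -0.41, 0.18, 0.41 and 0.34, and those of skeletal muscle -0.84, -0.54, 0.74 and 0.72. Markers of epidermal immune and dendritic cells had 0.23, -0.05, 0.32 and -0.15, although Cd207, which marks Langerhans cells of the epidermis, gave 2.69, 0.61, 0.58 and -0.29. No gene of these 5 lists passed an adjusted p of 0.05 in limma (0 genes), and at an unadjusted p under 0.05 there were 2 of 8 melanocyte, 2 of 8 adipocyte and 1 of 10 bone and cartilage markers, all with a higher ratio in the channel labelled DEP, where 10.0% of all genes had one.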
